A study of Homo sapiens with 31 samples.

Results

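The 8 libraries described here are RNA mixtures in which a colorectal cancer cell line supplied either 10% or 0.1% of the RNA, and they are 8 of the 31 libraries of the series. The study mixed RNA of cancer and normal colon lines in known proportions to try out a computational separation of cancer-derived RNA. In the 4 libraries of the higher group, 10% of the total RNA came from LoVo, LS1034, HT-29 or HCT116 and 90% from CCD841CoN. In the 4 libraries of the lower group, the same lines supplied 0.1% and CCD841CoN supplied 99.9%. The libraries were chosen by these labelled percentages and compared in pairs of the same cancer line.

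LoVo, LS1034, HT-29 and HCT116 are established lines from colorectal adenocarcinomas, and CCD841CoN is a line from normal colon. All 8 libraries contain CCD841CoN RNA, and no line was treated. Each line gave 1 library at each percentage, so the 4 libraries of a group are 4 different mixtures. The labels do not say whether the lines or RNA preparations were replicated, and the p-values therefore measure the spread between these libraries. RNA was mixed, not cells, so the percentages are shares of RNA and cannot be read as shares of cells.

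Epithelial cells of the colon are held together by E-cadherin, claudins and desmosomes, carry keratin filaments, and build a brush border under the control of transcription factors such as CDX2 and HNF4A. Fibroblasts secrete collagens and other matrix proteins and carry vimentin filaments and contractile actin bundles. When RNA of an epithelial line is diluted into RNA of a mesenchymal one, transcripts of the added line rise with its share, whereas transcripts of the diluent can fall only as far as the diluent was displaced.

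The 8 libraries held 13075811 to 56741879 counted reads, and 13182 to 14521 genes had at least 1 read. Mitochondrially encoded genes took 0.291% to 0.344% of the counts. Of 17113 genes in the table, 12399 passed the filter on low counts and were tested. A gene without reads at 0.1% could pass only through the 10% libraries, so a count of rises among the tested members of a list is a description. Across genes at well-measured levels the median coefficient of variation was 9.34% among the 10% libraries and 7.51% among the 0.1% libraries. The diluent was also checked against its label. In the unmixed CCD841CoN libraries the colon epithelial markers summed to 287 CPM (reads scaled to a common library total) and the fibroblast and mesenchymal markers to 43689 CPM, so the line labelled as normal colon carried fibroblast rather than epithelial markers.

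Raising the cancer share from 0.1% to 10% changed 1306 of the 12399 tested genes, which is 10.5% (adjusted p below 0.05 in edgeR's quasi-likelihood test, lines as pairs). Of these, 820 genes were higher (6.61%) and 486 were lower (3.92%). The rises were large and the falls were small. The median log2 fold change was 1.27 among the genes called higher, with 442 genes past 1 and 287 past 3, and -0.22 among those called lower, with 2 genes beyond -1. In 688 of the 820 higher genes and 400 of the 486 lower genes the groups of 4 libraries did not overlap, where 11.4% of all tested genes lay wholly above and 5.31% wholly below. With scaling by library size alone, 948 genes were higher and 262 lower, so the higher share was 78.3% in place of 62.8%. With a pair left out, 792 genes were called without LoVo, 793 without LS1034, 776 without HT-29 and 919 without HCT116. The median log2 fold change of all tested genes was 0.01 with the TMM scaling used throughout and 0.05 with library size alone.

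The amount of cancer RNA was first read from marker genes that each unmixed line expresses and CCD841CoN nearly lacks (log2 fold change of at least 5 and at least 5 CPM in the line). This estimate was 10.3% in the LoVo library labelled 10%, 13.6% in LS1034, 15.3% in HT-29 and 11.3% in HCT116, from 523 to 721 markers. In the libraries labelled 0.1% it was 0.139% for LoVo, 0.159% for LS1034, 0.206% for HT-29 and 0.143% for HCT116. All 8 estimates lay above the labelled percentage, and HT-29 was the highest in both groups. The label is a share of total RNA and the estimate a share of the reads counted in genes, so they need not be equal in a correct mixture. Why the estimates exceeded the labels was not tested. The means were 12.6% ± 2.25 and 0.162% ± 0.0306 (SD, n = 4). The groups did not overlap, which the choice of libraries by their percentages set in advance. The exact permutation test (two-sided) therefore adds no support. Its p was 0.0286 unpaired, the smallest for 4 libraries against 4, and 0.125 paired, the smallest that 4 pairs allow. Between the paired libraries the estimate rose 74.1-fold to 85.4-fold, against 100-fold by the labels. The 95% exact counting interval of the HCT116 library at 0.1%, the shallowest, ran from 0.115% to 0.172%, and that of the LoVo library at 0.1% from 0.131% to 0.148%. Intervals cover counting error only. At 0.1% the markers summed to 215 to 434 CPM, of which CCD841CoN alone had 152 to 286 CPM, so the estimate there rests on a small excess over the diluent.

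**Figure D1:**
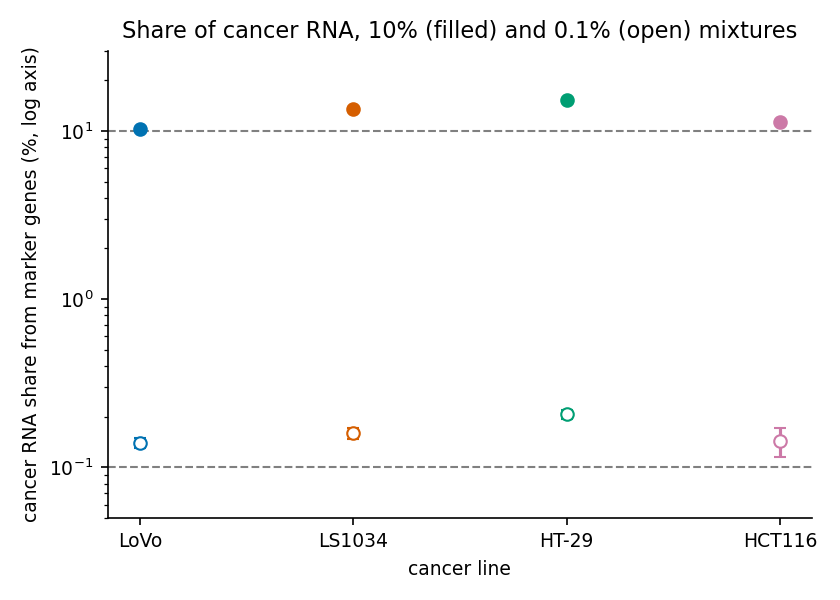
Share of cancer RNA estimated from marker genes (%, log axis) for each cancer line, with filled points for the libraries labelled 10%, open points for those labelled 0.1%, bars for 95% counting intervals and dashed lines at the labelled percentages. All points lie above their dashed line, from 10.3% to 15.3% and from 0.139% to 0.206%.

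Epithelial genes showed the clearest rise. EPCAM, an adhesion molecule of epithelial cells, stood at 120 CPM in the LoVo library at 10%, 343 in LS1034, 239 in HT-29 and 77.1 in HCT116. At 0.1% it stood at 3.01, 6.28, 5.46 and 1.38 CPM in the same order, and the unmixed CCD841CoN libraries had 0.108 CPM. The lowest 10% library was far above the highest 0.1% library, and the lines kept the same order at both percentages. The mean rose from 4.03 ± 2.25 to 195 ± 120 CPM (SD, n = 4), a 48.3-fold difference, with a log2 fold change of 5.50 ± 0.10 (SE, adjusted p = 1.55e-08). KRT8, a keratin of simple epithelia, stood at 469, 677, 1867 and 262 CPM in LoVo, LS1034, HT-29 and HCT116 at 10%. At 0.1% it stood at 12.2, 18.4, 35.4 and 7.72 CPM in that order. The groups did not overlap, and the log2 fold change of KRT8 was 5.32 ± 0.10 (adjusted p = 1.55e-08). CDH1, which encodes E-cadherin, had 37.2, 146, 64.7 and 9.52 CPM at 10% against 0.907, 2.66, 2.25 and 0.229 CPM at 0.1%. HCT116 was the lowest of the 4 lines for EPCAM, KRT8 and CDH1 in both groups.

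**Figure D2:**
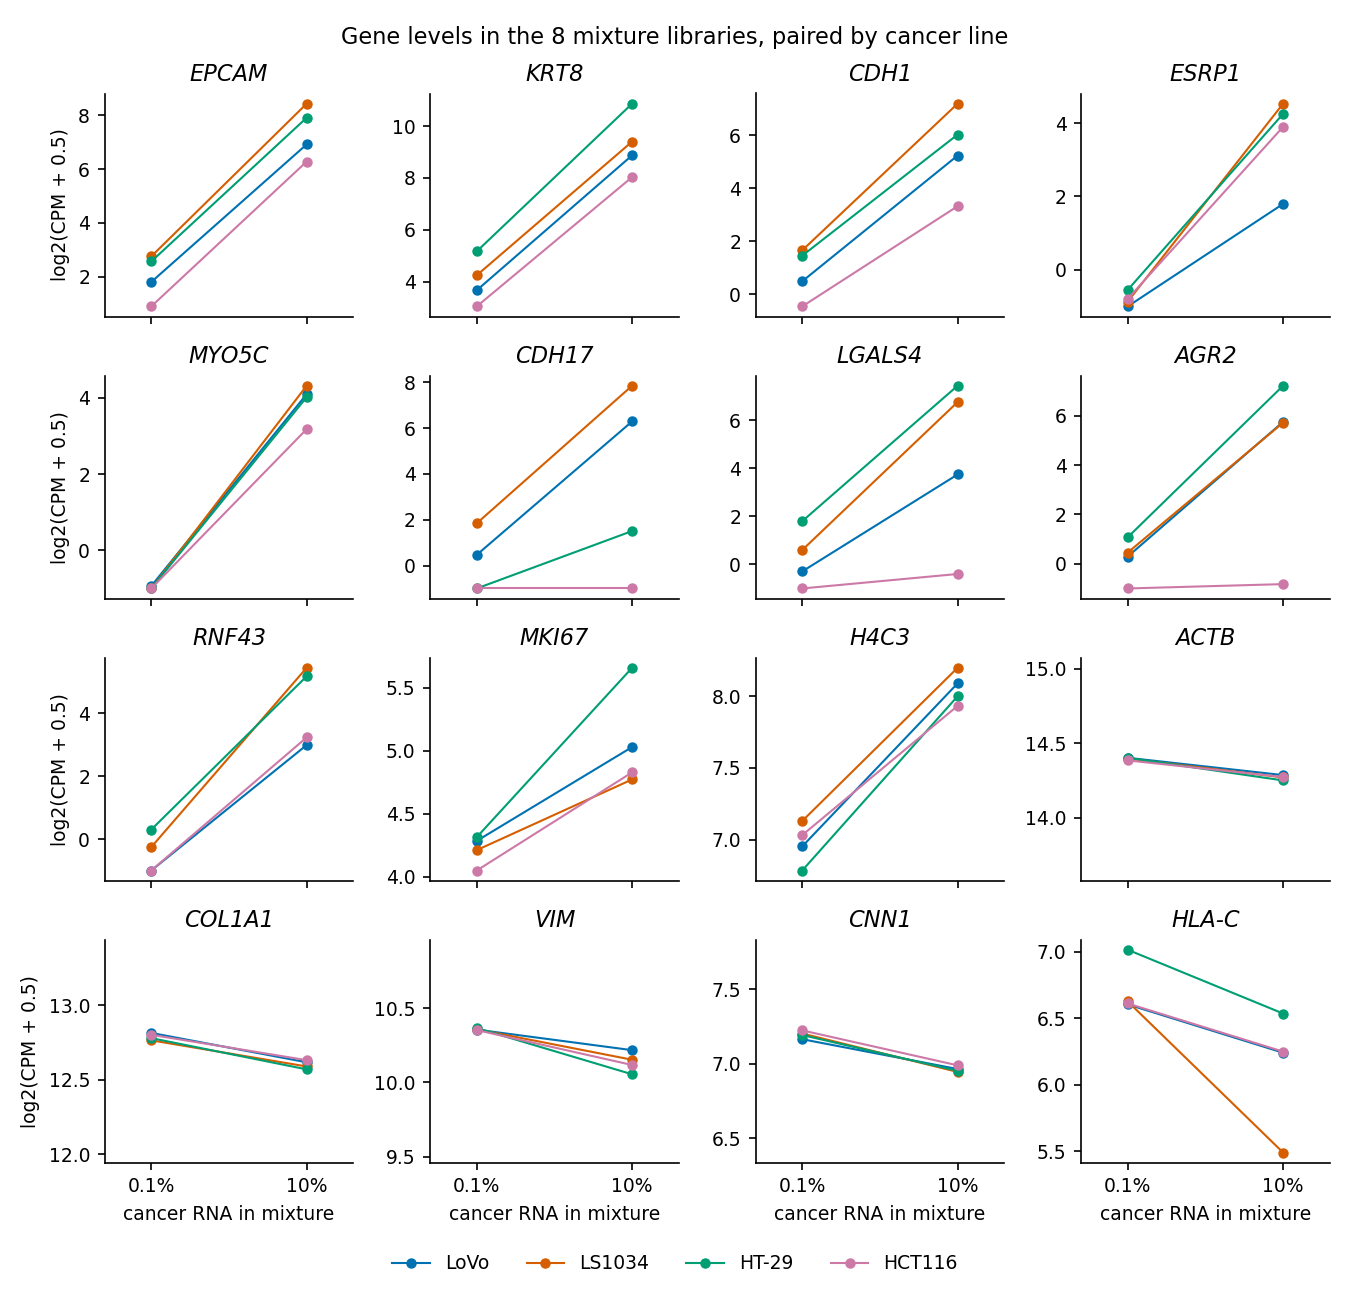
Level of 16 genes as log2(CPM + 0.5) in the 0.1% and 10% libraries, with a line joining the pair of each cancer line. EPCAM, KRT8 and CDH1 climb in parallel in 4 lines, CDH17, LGALS4 and AGR2 stay near the floor in HCT116, and ACTB, COL1A1, VIM and CNN1 fall slightly in all 4 pairs.

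All 12 tested members of the colon epithelial marker list rose, with a median log2 fold change of 5.55 against 0.01 for all tested genes. Over all tested genes 6.61% were higher and 3.92% lower, and the counts in each list below stand beside these shares. Their summed level was 936 to 4414 CPM at 10% and 254 to 297 CPM at 0.1%. The smallest rise was that of KRT18, the partner of KRT8 in keratin filaments. It stood at 523, 596, 1358 and 283 CPM at 10% and at 196 to 216 CPM in the 0.1% libraries (log2 fold change 1.47 ± 0.28, adjusted p = 0.0118), and CCD841CoN alone had 232 CPM. KRT19 rose by 3.04 ± 0.12 on the log2 scale, from 28.6 ± 1.63 to 251 ± 67.1 CPM, over 41.5 CPM in CCD841CoN. VIL1, CDX1 and CDX2 of the same list were below the filter and not tested.

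Of 39 tested genes of epithelial junctions and keratins, 32 rose and 0 fell in edgeR's test, with a median log2 fold change of 5.13. At an unadjusted p below 0.05, CLDN1 and KRT7 were lower, and DESeq2 called CLDN1 lower. Among the claudins, which seal tight junctions, CLDN3 rose by 6.22 ± 0.26 and CLDN7 by 5.61 ± 0.22 on the log2 scale. CLDN4 rose from 2.59 ± 0.856 to 88.4 ± 46.1 CPM. The splicing regulator ESRP1 stood at 2.98, 22.7, 18.6 and 14.4 CPM at 10% and at 0 to 0.183 CPM at 0.1%. GRHL2 and OVOL1, transcription factors of epithelial identity, had no read in any 0.1% library. GRHL2 reached 6.73, 3.22, 4.38 and 2.79 CPM at 10%, at least 142-fold higher than a floor of 3 reads over the group, and OVOL1 0.842 to 3.80 CPM, at least 84.2-fold higher. CLDN1 and KRT7 were among the members that did not pass edgeR's test at the adjusted threshold. CLDN1 had 201 ± 11.3 CPM at 10% and 220 ± 8.78 CPM at 0.1%, and KRT7 had 48.7 ± 3.67 and 54.1 ± 4.28 CPM.

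**Figure D3:**
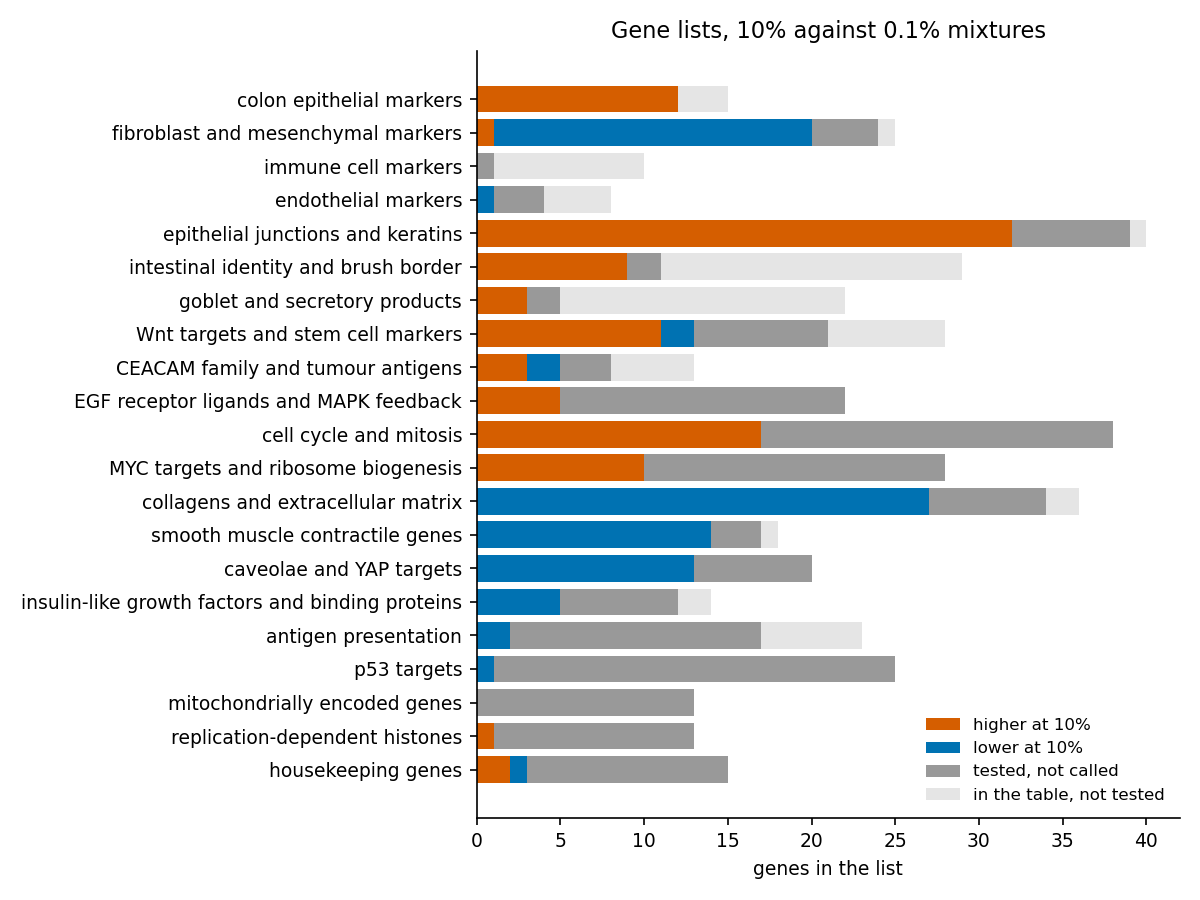
Number of genes in each of 21 lists that were higher (orange), lower (blue) or not called (grey) at 10% against 0.1%, with members below the filter in pale grey. Epithelial and proliferation lists hold only rises among their calls, matrix, contractile and caveolar lists only falls, and many intestinal and goblet genes were not tested.

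The genes with the largest rises were mostly absent from the 0.1% libraries. Of the 820 higher genes, 27 had no read in any library at 0.1%. MPZL2, an epithelial adhesion protein, reached 3.68, 9.64, 35.1 and 2.98 CPM at 10%, at least 427-fold above the floor of 3 reads. EPB41L4B was at least 377-fold, the gap junction gene GJB2 at least 326-fold, CHMP4C at least 286-fold and the homeobox gene HOXB9 at least 247-fold higher. GRB7, an adaptor of receptor tyrosine kinases, rose at least 233-fold and RAB11FIP4 at least 223-fold. SLC27A2 was at least 193-fold and HOOK1 at least 189-fold higher, and TMEM125 reached 5.67 ± 3.40 CPM (SD, n = 4). MYO5C, a myosin motor of secretory epithelia, had 1 read in the 0.1% libraries together and stood at 16.6, 19.4, 15.7 and 8.55 CPM at 10%, and the ratio of 1501 has a 95% counting interval of 270 to 59302. SYK, a tyrosine kinase, also had 1 read at 0.1%, and stood at 7.47, 22.5, 9.17 and 0.907 CPM at 10%. These genes were named for a rise in all 4 pairs, and with at most 1 read at 0.1% they could pass the filter only through their 10% libraries, so the lack of overlap is a description and no support. The size of the rise is limited by the depth at 0.1%.

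Genes of intestinal identity and the brush border differed among the lines, and HCT116 lacked many of them. Of the 29 such genes in the table, 11 were tested; 9 rose, with a median log2 fold change of 5.83, and GATA6 was among those that did not pass. CDH17, the cadherin of intestinal epithelium, stood at 78.1 CPM in LoVo and 231 CPM in LS1034 at 10%, but at 2.34 CPM in HT-29 and 0 in HCT116. At 0.1% the same lines had 0.884, 3.09, 0 and 0 CPM. The HT-29 and HCT116 libraries at 10% lay within the range of the 0.1% libraries, and the paired test called the rise (log2 fold change 6.31 ± 0.19, adjusted p = 1.89e-06). LGALS4, an intestinal galectin, stood at 12.9, 108, 173 and 0.259 CPM at 10% and at 0.317, 1.01, 2.98 and 0 CPM at 0.1%. TSPAN8 had 123, 255, 123 and 0 CPM at 10%, with 2.40, 2.61, 2.93 and 0 CPM at 0.1%. HNF4A, a transcription factor of the gut epithelium, reached 5.46, 10.3, 7.09 and 0.907 CPM at 10% from 4 reads in the 0.1% libraries together. USH1C, a scaffold of the brush border, stood at 7.10, 25.3, 19.9 and 2.98 CPM at 10%, and only LS1034 had reads at 0.1%. With the HCT116 pair left out, 21 genes of this list were called higher, more than the 11 tested here, as the filter was applied anew. With all pairs kept and no filter, 20 were called higher.

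Among goblet and secretory products, 3 of 5 tested genes rose (60%, against 6.61% of all tested genes). Another 17 of the 22 in the table were below the filter. AGR2, a disulfide isomerase of mucus-secreting cells, stood at 53.4, 52.2, 148 and 0.0648 CPM at 10% and at 0.725, 0.870, 1.60 and 0 CPM at 0.1% (log2 fold change 6.21 ± 0.17, adjusted p = 2.24e-07). GCNT3, a glycosyltransferase of mucin glycans, rose by 6.30 ± 0.32 and the trypsin inhibitor SPINK1 by 6.51 ± 0.31 on the log2 scale. HCT116 stood apart again, with 0.583 CPM of GCNT3 and 0.0648 CPM of SPINK1 at 10%. The list's count of 3 was 5 without the HCT116 pair, 9 without the filter and 10 with all 16 mixtures in the fit. It was 0 with unmixed CCD841CoN as the control. CREB3L1, a transcription factor of secretory and matrix-producing cells, went the other way without passing the test. It had 296 ± 18.4 CPM at 10% and 323 ± 6.18 CPM at 0.1% (adjusted p = 0.0547), and its HT-29 library at 10% was the highest of that group at 323 CPM.

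Genes of cancer-related pathways moved unevenly. Of 21 tested Wnt targets and stem cell markers, 11 rose and 2 fell, with a median log2 fold change of 1.04. RNF43, a ubiquitin ligase that restrains Wnt receptors, stood at 7.47, 43.4, 35.9 and 8.94 CPM at 10%, and at 0, 0.338, 0.734 and 0 CPM at 0.1%. PROM1, a stem cell surface marker, reached 5.13, 1.44, 33.4 and 2.46 CPM at 10%, from 4 reads at 0.1%. SOX9 rose from 6.06 ± 1.23 to 39.8 ± 12.8 CPM and MYC from 31.7 ± 4.28 to 88.0 ± 20.2 CPM. The 2 that fell are expressed more strongly by the diluent. CD44, a hyaluronan receptor, stood at 3589 to 3696 CPM at 10% and 4117 to 4254 CPM at 0.1%, over 4605 CPM in unmixed CCD841CoN. CCND1, which encodes cyclin D1, fell by 0.20 ± 0.03 on the log2 scale, from 2019 ± 52.7 to 1805 ± 68.1 CPM.

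Of 22 genes of EGF receptor ligands and MAPK feedback, 5 rose (22.7%, against 6.61% of all tested genes) and 0 fell. The list's median log2 fold change was 0.07. The risers were the ligands TGFA, AREG and EREG, the receptor ERBB3 and the transcription factor ETV4. TGFA stood at 5.53, 18.6, 13.4 and 6.54 CPM at 10%, and only HCT116 had reads at 0.1%, at 0.459 CPM. EREG had 73.2, 65.2, 23.5 and 95.4 CPM at 10% against 0.408, 0.242, 1.56 and 2.14 CPM at 0.1%, and HCT116 was the highest line. ERBB3 rose by 6.27 ± 0.29 on the log2 scale. The feedback phosphatase DUSP6 had 78.1 ± 11.2 CPM at 10% and 71.4 ± 8.23 CPM at 0.1% and did not pass the test.

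In the list of CEACAM genes and tumour antigens, CEACAM5, CEACAM6 and TNFRSF21 rose and MAGED1 and MAGED2 fell among 8 tested genes. CEACAM5, the carcinoembryonic antigen, stood at 43.3, 74.5, 0.729 and 0 CPM at 10%, and at 0.680, 1.50, 0 and 0 CPM at 0.1%. CEACAM6 had 34.7, 126, 17.5 and 0 CPM at 10%. MAGED1 fell from 796 ± 11.6 to 710 ± 15.8 CPM and had 835 CPM in unmixed CCD841CoN. MAGED2 had 414 ± 16.7 CPM at 0.1% and 376 ± 20.8 CPM at 10% with an overlap between the groups, and its adjusted p of 0.0275 became 0.0773 with library size alone, 0.0994 without the LS1034 pair, 0.0844 without HT-29 and 0.114 without HCT116. TNFRSF21, a death receptor, was not called without LoVo (adjusted p = 0.0969), LS1034 (0.0674) or HT-29 (0.0835). With unmixed CCD841CoN as the control 0 genes of the list were called higher, and by DESeq2 or with no filter 5 were.

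Proliferation genes rose modestly and in one direction. Of 38 cell cycle and mitosis genes, 17 rose (44.7%, against 6.61% of all tested genes) and 0 fell. The list's median log2 fold change was 0.42. In the EGF receptor and cell cycle lists, no gene was lower at an unadjusted p below 0.05 in edgeR or by DESeq2 either. MKI67, a marker of cycling cells, stood at 32.2, 26.8, 50.0 and 27.9 CPM at 10% and at 19.0, 18.0, 19.4 and 16.1 CPM at 0.1%. The groups did not overlap, and HT-29 was the highest in both (log2 fold change 0.83 ± 0.14, adjusted p = 0.00733). MCM2, a subunit of the replicative helicase, rose from 31.7 ± 4.11 to 62.1 ± 22.9 CPM, and its adjusted p became 0.0821 without the LS1034 pair, 0.126 without HT-29 and 0.139 without HCT116. The list's count of 17 was 9 with the HCT116 pair left out, 10 without HT-29 and 10 with all 16 mixtures in the fit. Of 28 MYC targets and ribosome biogenesis genes, 10 rose (35.7%, against 6.61% of all tested genes), with a median of 0.28. With all 16 mixtures in the fit, 6 rose. HSPD1, a mitochondrial chaperonin, rose from 218 ± 11.4 to 357 ± 45.3 CPM, and FBL, the nucleolar methyltransferase fibrillarin, from 29.5 ± 1.24 to 51.9 ± 14.2 CPM.

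Only H4C3 was called among 13 tested replication-dependent histone genes (7.69%, against 10.5% of all tested genes). The median log2 fold change of the list was -0.01. H4C3 stood at 272, 293, 255 and 244 CPM at 10% and at 124, 140, 110 and 130 CPM at 0.1% (log2 fold change 1.04 ± 0.06, adjusted p = 1.45e-05). Histone H4 genes have near-identical coding sequences, and the count of H4C3 depends on how shared reads were assigned.

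Most tested matrix and mesenchymal genes of the diluent fell, and by a small amount. COL1A1, the alpha-1 chain of type I collagen, stood at 6283, 6161, 6078 and 6345 CPM at 10% in LoVo, LS1034, HT-29 and HCT116. At 0.1% it stood at 7205, 6960, 7032 and 7143 CPM. The groups did not overlap, and the mean at 10% was 87.7% of the mean at 0.1% (log2 fold change -0.23 ± 0.02, adjusted p = 5.46e-05). VIM, which encodes vimentin, stood at 1189, 1137, 1063 and 1110 CPM at 10% and at 1306 to 1319 CPM at 0.1%. Its fall of 0.26 ± 0.03 on the log2 scale was likewise present in all 4 pairs. With unmixed CCD841CoN as the control, VIM had a log2 fold change of -0.15 and was not called (adjusted p = 0.348).

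Of 24 tested fibroblast and mesenchymal markers, 19 fell and 1 rose, with a median log2 fold change of -0.22. The summed level of the list was 34241 to 35996 CPM at 10% and 40075 to 40592 CPM at 0.1%. DCN, the proteoglycan decorin, fell from 6554 ± 26.8 to 5734 ± 173 CPM and THY1, a fibroblast surface marker, from 593 ± 4.22 to 528 ± 4.77 CPM. FAP had 61.8 ± 7.34 CPM at 0.1% and 56.5 ± 4.34 CPM at 10% and did not pass (adjusted p = 0.211). The gene that rose was S100A4, a calcium-binding protein of motile cells, with 41.7, 86.1, 56.8 and 92.0 CPM at 10% against 37.2 to 42.1 CPM at 0.1%. The S100A4 groups overlapped through the LoVo library, and its adjusted p of 0.0450 became 0.156 without the LS1034 pair, 0.112 without HT-29 and 0.163 without HCT116.

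Of 34 tested collagen and extracellular matrix genes, 27 fell by edgeR's test (30 by DESeq2, and 16 with all 16 mixtures in the fit), with a median log2 fold change of -0.23. In this list 0 genes rose, and 0 were higher at an unadjusted p below 0.05 or by DESeq2. The called falls ran from -0.15 for COL6A3, a chain of type VI collagen, to -0.40 for TNC. The call for COL6A3 was lost with any single pair left out (adjusted p from 0.0675 to 0.111). SPARC fell by 0.24 ± 0.02 and FN1, which encodes fibronectin, by 0.25 ± 0.03 on the log2 scale. TNC, the matrix protein tenascin C, had 45.0 ± 2.59 CPM at 0.1% and 35.4 ± 3.46 CPM at 10%. Its adjusted p of 0.0398 became 0.0635 with library size alone, 0.145 without the LoVo pair, 0.140 without LS1034 and 0.112 without HT-29. With library size alone, 21 genes of this list and 15 of the fibroblast list were called lower.

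Contractile and caveolar genes moved in the same way. Of 17 smooth muscle contractile genes tested, 14 fell (82.4%, against 3.92% of all tested genes), with a median of -0.21. Without the LS1034 pair, 9 fell. CNN1, which encodes calponin, stood at 124, 123, 123 and 127 CPM at 10% and 143, 147, 146 and 149 CPM at 0.1%, without overlap. Of 20 caveolae and YAP target genes, 13 fell (65%, against 3.92% of all tested genes), with a median of -0.21. The count was 8 without the LS1034 pair, 5 with all 16 mixtures in the fit and 4 with unmixed CCD841CoN as the control. CAV1, the coat protein of caveolae, fell from 2137 ± 55.3 to 1884 ± 87.2 CPM. In HCT116 it is expressed by the cancer line too, at 867 CPM in the unmixed line against 2472 CPM in CCD841CoN, and the HCT116 library was the highest of the 10% group at 1973 CPM. Of 12 insulin-like growth factor genes tested, the binding protein genes IGFBP3 to IGFBP7 fell (41.7%, against 3.92% of all tested genes). IGFBP5, for example, fell from 5393 ± 172 to 4775 ± 194 CPM. IGFBP6 was not called with any single pair left out (adjusted p from 0.0703 to 0.103). IGFBP3 was not called with unmixed CCD841CoN as the control (adjusted p = 0.410).

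Reference genes did not all stay level. Among 15 housekeeping genes, RPLP0 and RPL13A rose and ACTB fell (20% called, against 10.5% of all tested genes). ACTB stood at 19485 to 19974 CPM at 10% and at 21391 to 21653 CPM at 0.1%. Its fall of 0.17 ± 0.01 on the log2 scale (adjusted p = 4.81e-05) was also called with library size alone. With unmixed CCD841CoN as the control, ACTB had a log2 fold change of -0.08 and was not called (adjusted p = 0.319). RPLP0, a ribosomal protein gene with several processed pseudogenes, stood at 794, 590, 493 and 560 CPM at 10%, LoVo being the highest, and at 443 to 460 CPM at 0.1%. Its adjusted p was 0.0276, and 0.110 by DESeq2, and neither ribosomal gene was called without the LoVo, LS1034 or HCT116 pair. Of 13 mitochondrially encoded genes, 0 were called by edgeR's test and 0 by DESeq2, and MT-ND2 was higher at an unadjusted p below 0.05. Of 25 p53 targets, 1 was called (4%, against 10.5% of all tested genes). It was CDKN1A, a cyclin-dependent kinase inhibitor, with 2146 ± 41.8 CPM at 0.1% and 1909 ± 69.2 CPM at 10%. Its level in unmixed CCD841CoN was 1646 CPM, and with those libraries as the control its sign turned.

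Among 17 antigen presentation genes, HLA-C and CALR fell and 0 rose by edgeR, and DESeq2 called 0 genes higher. The edgeR calls are 11.8% of the list, near the 10.5% called among all tested genes. CALR, a chaperone of class I assembly, had 507 ± 28.7 CPM at 0.1% and 472 ± 19.4 CPM at 10%, and its adjusted p of 0.0427 became 0.142 with library size alone and 0.0860 to 0.116 with any single pair left out. HLA-C, a class I antigen-presenting molecule, had the largest fall of any gene above 50 CPM named here. It stood at 75.1, 44.4, 92.2 and 75.5 CPM at 10% in LoVo, LS1034, HT-29 and HCT116, and at 96.7, 98.2, 129 and 97.2 CPM at 0.1%. The groups did not overlap, the LS1034 library was the lowest at 10%, and the mean fell to 68.2% (log2 fold change -0.63 ± 0.12, adjusted p = 0.0138). The adjusted p of HLA-C became 0.0569 without the pairing by line, 0.117 with all 16 mixtures in the fit and 0.138 with unmixed CCD841CoN as the control. Class I genes have close paralogs, so the count depends on how shared reads were assigned, and HLA-B (log2 fold change -0.27) did not pass. B2M, the light chain of class I molecules, did not pass either, at 3827, 4552, 3730 and 3788 CPM at 10% and 4079 ± 154 CPM at 0.1%. The LS1034 library held the highest level of B2M and the lowest of HLA-C.

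Markers of other cell types were not all low. PTPRC had no read in any of the 8 libraries, and CD14 was the only tested immune marker of 10 in the table, with 10.8 ± 1.39 CPM at 10% and 12.2 ± 0.590 CPM at 0.1%. The immune list summed to 9.71 to 373 CPM at 10% and to 11.9 to 18.6 CPM at 0.1%, and the highest value was that of HT-29, in which LYZ alone had 361 CPM. The endothelial list summed to 357 to 411 CPM at 10%, 415 to 446 CPM at 0.1% and 441 CPM in unmixed CCD841CoN, nearly all of it from the receptor genes FLT1 and TEK. KDR, TIE1 and EMCN of that list had no read at 0.1%. Of 4 tested endothelial markers FLT1 was called lower, with 222 ± 6.92 CPM at 0.1% and 194 ± 11.6 CPM at 10%, but its adjusted p of 0.0132 became 0.0602 without the LoVo pair, 0.0638 without HCT116 and 0.105 with all 16 mixtures. TEK had 206 CPM at 0.1% and 187 CPM at 10% (adjusted p = 0.113).

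The deepest falls lay at low levels. ZNF844, a zinc finger gene, stood at 3.35, 5.19, 1.41 and 2.98 CPM at 10% and at 6.14, 7.25, 5.91 and 6.81 CPM at 0.1% (log2 fold change -1.16 ± 0.31, adjusted p = 0.0480). ITGA4, an integrin subunit, fell from 6.81 ± 1.39 to 3.45 ± 1.33 CPM, SYPL2 from 10.5 ± 1.60 to 5.58 ± 1.41 CPM and TMEM156 from 10.7 ± 1.27 to 6.63 ± 1.04 CPM. None of these 4 calls held with any single pair left out, where the adjusted p ran from 0.0663 to 0.137 for ZNF844, 0.0661 to 0.0882 for ITGA4, 0.0664 to 0.107 for SYPL2 and 0.0640 to 0.142 for TMEM156. With library size alone the calls for ZNF844 (adjusted p = 0.0570) and TMEM156 (0.0519) ended too. Unmixed CCD841CoN had 2.98 CPM of ZNF844, below the 0.1% libraries.

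If the labelled percentages hold for the counted reads, a gene expressed by the diluent alone can fall only by the displaced share. That share, from 99.9% to 90%, is 9.91% or -0.15 on the log2 scale. Of the 486 genes called lower, 459 had a fitted change beyond that bound. In edgeR's test against the bound, chosen after seeing the data, 48 genes fell past it with TMM scaling and 3 with library size alone. The 3 were HLA-C, NID1 and VAT1L. NID1, which encodes the basement membrane protein nidogen, stood at 77.3, 73.6, 73.4 and 80.5 CPM at 10% and at 104, 103, 99.9 and 90.9 CPM at 0.1%. The size of the small falls thus depended on the scaling, as the TMM factors were 1.01 to 1.02 at 10% and 0.98 to 0.99 at 0.1%. The bound itself rests on the labels. The marker-based shares of the 10% libraries averaged 12.6%, and at such a share the bound would lie deeper.

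The change of each gene was then compared with the change predicted by mixing the levels of the unmixed libraries (12 of the cancer lines and 3 of CCD841CoN) in the labelled proportions. Across the 12399 tested genes, the observed and predicted log2 changes had a Pearson r of 0.937 and a Spearman rho of 0.753 as means of the 4 lines. These values describe genes, which are not independent replicates, and both changes rest on the same kind of library and shared gene lengths. For single lines the Pearson r was 0.834 for LoVo, 0.867 for LS1034, 0.860 for HT-29 and 0.775 for HCT116. In 96.3% of genes the mean observed change lay within 0.5 of the prediction on the log2 scale.

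**Figure D4:**
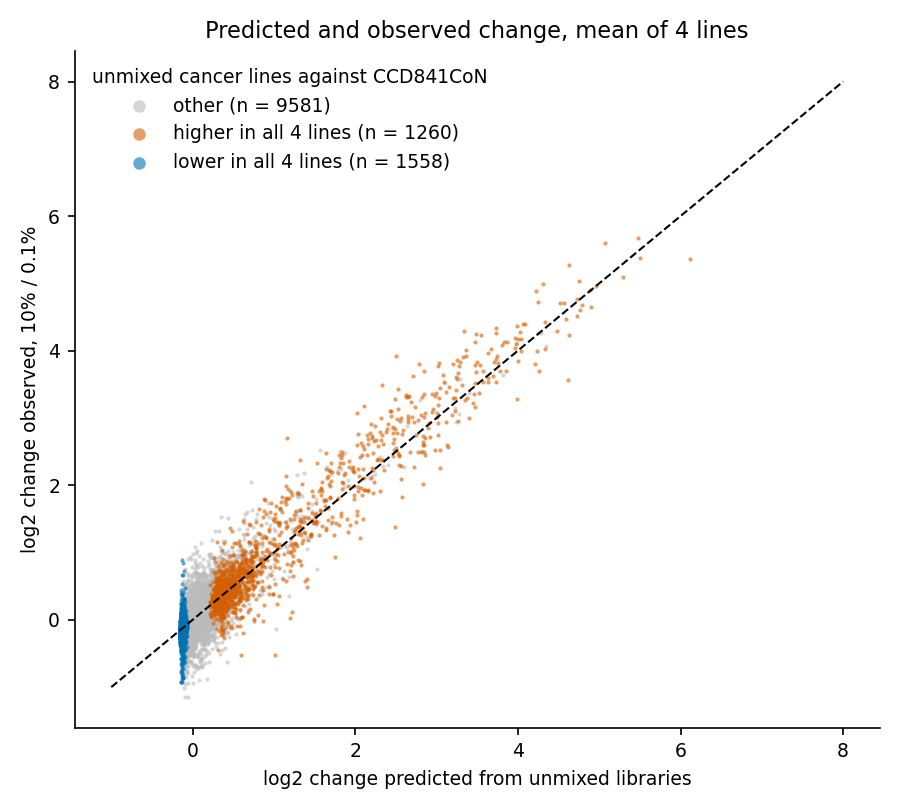
Observed log2 change between the 10% and 0.1% libraries against the change predicted from the unmixed libraries, each the mean of 4 lines with 0.5 CPM added, for the 12399 tested genes. Genes higher in all 4 unmixed lines (orange, n = 1260) run along the dashed line of equality up to about 6, and genes lower in all 4 (blue, n = 1558) form a narrow column near -0.13.

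Between the unmixed cancer lines and CCD841CoN, 6806 of 14452 genes (47.1%) differed at a log2 fold change of at least 1. Of the 1260 tested genes that were higher in all 4 unmixed cancer lines than in CCD841CoN, 594 were called higher at 10% and 0 lower (edgeR's test; 0 lower also by DESeq2 and at an unadjusted p below 0.05). Their median observed log2 change was 0.66 against 0.59 predicted. By line the observed medians were 0.62 for LoVo, 0.70 for LS1034, 0.81 for HT-29 and 0.66 for HCT116, against predictions of 0.64, 0.54, 0.54 and 0.59. LoVo lay close to its prediction and HT-29 was the farthest above, the same line that had the highest marker-based share. Both values rest on the same mixtures and unmixed libraries, so the match is a description and no separate support. Of the 1558 genes lower in all 4 lines, 405 were called lower and 0 higher (0 by DESeq2, 1 at an unadjusted p below 0.05), with medians of -0.16 observed and -0.13 predicted. HT-29 had the largest median fall, -0.21, and LoVo the smallest, -0.11. The remaining 9581 genes gave 226 calls higher and 81 lower.

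Whether a line-enriched gene was called depended on its ratio and its level. Of genes with an unmixed log2 ratio above 8, 96.1% of 180 were called higher, and of those between 5 and 8, 84.3% of 140. Between 1 and 2, 13.9% of 1637 genes were called. Among genes lower in all 4 lines, 0.676% of the 296 genes below 10 CPM in CCD841CoN were called lower, and 89.5% of the 257 genes above 300 CPM. The median fitted fall hardly differed between these level bins, at -0.24 and -0.21.

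**Figure D5:**
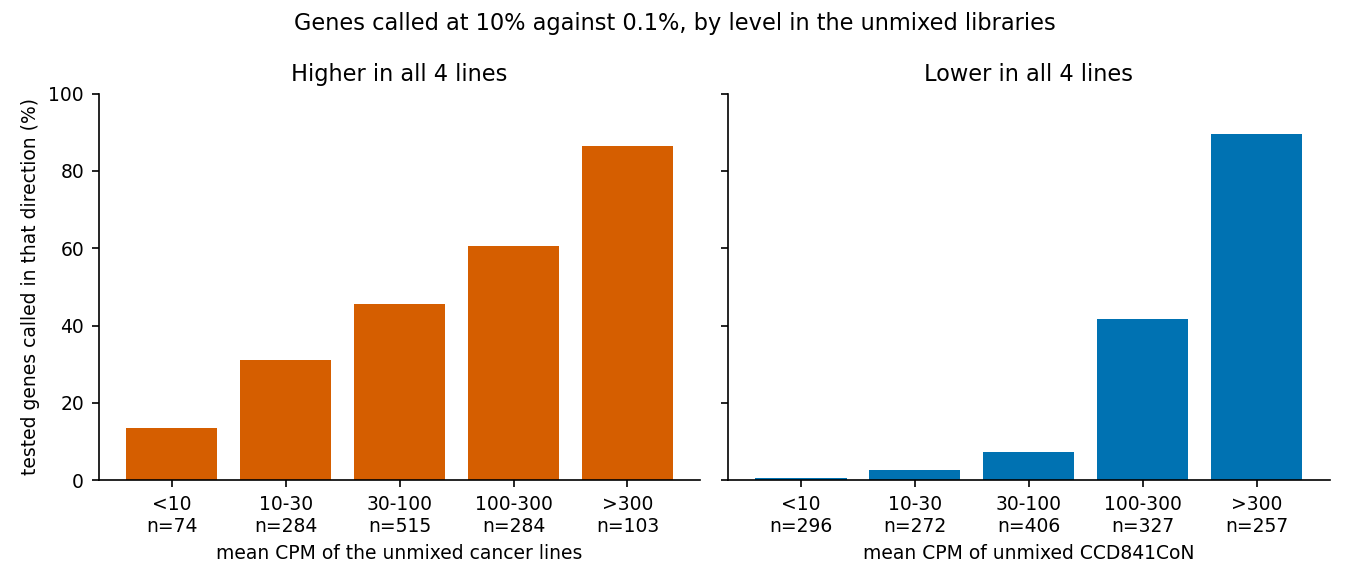
Percentage of tested genes called higher (left, genes higher in all 4 unmixed lines) or lower (right, genes lower in all 4) at 10% against 0.1%, by mean CPM in the unmixed libraries, with the number of genes under each bar. Calls of falls climb from 0.676% to 89.5% and calls of rises from 13.5% to 86.4% with the level.

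There were 6 exceptions to the direction of the unmixed libraries, all with little statistical support. NIPA1, SAP130 and ARHGEF12 were called lower although the unmixed lines had higher means, and TMEM64, ETS2 and SLC2A9 were called higher although the unmixed lines did not exceed CCD841CoN. NIPA1, a magnesium transporter gene, had 26.9 ± 3.44 CPM at 10% and 34.1 ± 3.32 CPM at 0.1%, where unmixed CCD841CoN had 20.9 CPM. Each of the 6 had an adjusted p between 0.0270 (TMEM64) and 0.0475 (ARHGEF12), and each lost its call in 5 to 8 of 11 alternative settings. ETS2 had 166 ± 13.7 CPM at 10% and 140 ± 7.11 CPM at 0.1%, against 159 CPM in unmixed CCD841CoN.

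Genes carried by a single line stood out in its own 10% library and were mostly outside the test. A gene was counted here if it reached 10 CPM in the 10% library of 1 line, 5 times its 0.1% library and 10 times every other 10% library. LS1034 had 29 such genes, HT-29 18, HCT116 7 and LoVo 5. Since these values chose the genes, the levels are a description. Of the 59 genes, 9 passed the filter and 1, PHGR1, was called; without the filter 37 were called.

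In the LoVo library at 10%, REG4, a secreted lectin of enteroendocrine and goblet cells, stood at 207 CPM, against 2.47 CPM at 0.1% and at most 15.8 CPM in the other 10% libraries. LGR5, the receptor that marks intestinal stem cells, stood at 39.9 CPM in LoVo and 0.408 CPM at 0.1%, and CALB1 at 45.9 CPM. In LS1034, PHGR1 had 169 CPM at 10% and 1.26 CPM at 0.1%. The renal and intestinal dipeptidase DPEP1 had 81.7 CPM there, the fatty acid binding protein gene FABP1 59.6 CPM and the homeobox gene CDX1 36.5 CPM. Each stood above the level predicted from unmixed LS1034, which was 97.2 CPM for PHGR1, 62.5 for DPEP1, 36.7 for FABP1 and 32.5 for CDX1.

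In HT-29, LYZ, which encodes lysozyme, stood at 361 CPM at 10% and 5.69 CPM at 0.1%, and no other 10% library exceeded 0.243 CPM. TM4SF4 stood at 231 CPM at 10% in HT-29 and 3.85 CPM at 0.1%, and in the fit over 4 lines its adjusted p was 0.0819. In HCT116, the scaffold gene AKAP12 stood at 183 CPM at 10% and 19.3 CPM at 0.1%, while the other 10% libraries had 12.2 to 17.2 CPM, close to the 19.7 CPM of CCD841CoN. MAGEB2, a cancer-testis antigen, had 33.1 CPM in HCT116 at 10% and no read in any 0.1% library or other 10% library, and GTSF1 had 35.6 CPM.

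The series also holds libraries at 1% and 50%, each compared with the same 0.1% libraries, so the comparisons are not independent and are only set side by side. At 1%, 23 of 12173 genes were called (0.189%), 21 higher (0.173%) and 2 lower (0.0164%), and at 50%, 4611 of 12521 (36.8%), 2581 higher (20.6%) and 2030 lower (16.2%). EPCAM averaged 4.03 CPM at 0.1%, 25.1 at 1%, 195 at 10% and 800 at 50%. HLA-C averaged 105, 93.1, 71.8 and 59.2 CPM in the same order.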

How the data were processed

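RNA was sequenced after ribosomal depletion with a stranded kit, per the labels' protocols. The deposited table holds raw counts per gene for 31 libraries. The submitters' processing notes name STAR, featureCounts and the hg19 build, and whether counting used strand is not given in the sources used here. Every column belongs to a sample of the series.

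The 8 mixtures were compared with edgeR 4.0.16 in R 4.3.3 (quasi-likelihood test, filterByExpr, TMM, percentage with the cancer line as a block), with Benjamini-Hochberg adjustment over 12399 genes and a threshold of 0.05. Each pair shares a cancer line, and deviations from the group means correlated at 0.0683 to 0.134 between libraries of the same line, the highest for each line. CPM were computed from total counts. The SE of a log2 fold change was taken as its absolute value divided by the square root of the test's F statistic. Changes predicted or observed from CPM used a pseudocount of 0.5. Folds against 0 reads used a floor of 3 counts over the group. Marker-based shares were linear between unmixed line and CCD841CoN means.

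The named genes were the 12 largest called rises and 10 largest called falls with a mean of at least 5 CPM, from which the text takes a part, and the 3 largest called, the highest and the contrary members of each of 21 lists. Colon epithelial and fibroblast markers and genes restricted to 1 line were added. EREG, SOX9, MYC, ETV4 and other genes outside these rules were named after their values were seen. The members and lists were chosen with earlier results of these data known. The fit was tested on simulated data. Alternatives were other scalings, no filter, DESeq2 1.42.0, no block, all 16 mixtures, unmixed CCD841CoN as control, and each pair left out.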

Additional observations from a re-analysis of the deposited data

Results flagged for a closer look

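Among 198 groups of 4 libraries (the tested genes named in the report, apart from those restricted to 1 line, and the marker-based shares), 16 had a library farther from the others than Dixon's test allows at the 95% level, 7 at 10% and 9 at 0.1%. For normally distributed values chance flags about 1 in 20 groups. A group with reads in 1 library only is always flagged, and the libraries are of different lines, so that rate is no yardstick here. HT-29 was the outlying library 6 times, LS1034 4, HCT116 4 and LoVo 2.

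At 10%, PROM1 stood at 33.4 CPM in HT-29 against at most 5.13 CPM elsewhere, and HOOK1 at 9.79 CPM against 4.81. CREB3L1 was at 323 CPM and NIPA1 at 32.0 CPM in HT-29, with 288 and 25.7 CPM in the next library. B2M was at 4552 CPM and SLC2A9 at 4.49 CPM in LS1034, with 3827 and 1.09 CPM next. ARHGEF12 was low in HCT116, at 66.3 CPM against 75.9 CPM or more.

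At 0.1%, SOX9 stood at 4.22 CPM in HT-29 against 6.46 CPM or more, and HLA-B at 100.9 CPM in HCT116 against 60.8 CPM or less. USH1C (0.338 CPM) and SYK (0.0483 CPM) had reads only in LS1034, HNF4A (0.0907 CPM) and MYO5C (0.0227 CPM) only in LoVo, and TGFA (0.459 CPM) only in HCT116. These 5 values rest on 1 to 7 reads each. HLA-C was at 129 CPM in HT-29, with 98.2 CPM next. CCND1 was lowest in HCT116, at 1941 CPM, with 2039 CPM next.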

How the results depend on the processing

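Of 88 tested and called genes named in the report, 47 kept their call in every alternative in which they were tested, and none changed sign under another scaling, DESeq2, no filter, no block, or all 16 mixtures. With unmixed CCD841CoN as control, 28 lost the call and 5 others turned sign: CDKN1A (0.15), ZNF844 (0.06), NIPA1 (0.29), SLC2A9 (-0.36) and ETS2 (-0.01). Of genes not called, AKAP12 turned to -0.26 without HCT116, in a range up to 0.90 over the pairs left out, and DUSP6 to -0.02 without HCT116 and to -0.31 with CCD841CoN as control. Depth at 0.1% limits every fold of a gene absent there, and the cause of the differences below was not tested.

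Without the pairing block, 1424 genes were called in place of 1306, and with each pair left out 776 to 919. Higher genes numbered 524 to 673 with a pair left out and 524 with CCD841CoN as control. Lower genes numbered 229 to 258 with a pair left out, 262 with library size only and 156 with all 16 mixtures. At 1%, 23 calls became 52 with no filter, 57 by DESeq2, 3 without the block, 124 with all 16 mixtures, 4 with CCD841CoN as control and 7 to 31 with a pair left out. At 50%, 4611 became 7160 with all 16 mixtures and 3298 to 3643 with a pair left out. Unmixed calls were 6806, and 6879 with a replicate block. Genes past the dilution bound numbered 48, and 3 with library size only. The mean share at 10% moved from 12.6% to 15.8% with TMM library sizes, and at 0.1% from 0.162% to 0.206%, or to 0.199% with markers at a log2 fold change of 8. The predicted medians moved from 0.59 to 0.71 (higher in all 4), -0.13 to -0.17 (lower in all 4) and 0.052 to 0.063 (other) with estimated shares, and to 0.64 and -0.14 with a pseudocount of 0.1 CPM.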
